A study of Sus scrofa with 6 samples.

Results

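A growing oocyte transcribes the messages that the egg and early embryo will need and keeps many of them untranslated in its cytoplasm. RNA-binding proteins hold these stored messages: cold-shock domain proteins coat them, zinc finger proteins of the ZAR family bind them, and the helicase DDX6 with its LSM14 and PAT partners represses them. Other proteins, among them the IGF2BP family and DAZL, stabilise messages or promote their translation when the oocyte resumes meiosis. The 9 genes YBX2, ZAR1, ZAR1L, LSM14B, DDX6, PATL2, IGF2BP2, IGF2BP3 and DAZL were followed, chosen by name as genes of maternal mRNA storage. A gene record was found for 8 of them among 19300 genes, and 7 had a mean of at least 1 FPKM over the oocytes and were compared between classes. PATL2 was matched to no gene record by its symbol and is not analysed here.

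RNA of 6 single pig oocytes was sequenced, from 3 oocytes scored BCB-positive and 3 scored BCB-negative. Brilliant cresyl blue is a dye that growing oocytes generally reduce to a colourless form, so BCB-positive oocytes, which stay blue, are taken as fully grown and BCB-negative oocytes as still growing. All oocytes were at the germinal vesicle stage, were not cultured for maturation and came from antral follicles of 3 to 6 mm, enclosed by at least 3 layers of cumulus cells. Hyaluronidase, vortexing and pronase removed the cumulus cells and the zona pellucida before lysis. The labels name no breed, age, animal or culture for any oocyte, so each class was treated as 1 sample made of 3 cells, and the classes were compared without a p-value. An SD given below is the spread between oocytes. Levels are in FPKM, a fragment count corrected for transcript length and library depth. Genes of different length can be compared by FPKM where their transcript models are complete, which was not checked. Differences are BCB-positive minus BCB-negative means of log2(FPKM + 1), which understate the change of low genes. A gene was called higher or lower where all 3 oocytes of a class lay beyond all 3 of the other and the difference was at least 1.5-fold.

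Expected counts per oocyte summed to between 7122749 and 9238987. BCB-positive oocyte 3 stood apart, with a mean Pearson correlation of 0.874 with the other oocytes across genes, against 0.905 to 0.915 for the rest. Its level lay above that of all the other oocytes for 32.6% of the genes compared, and below it for 18.4%. Zona pellucida messages marked all libraries as oocytes, with ZP3 at 14619, 6632 and 5602 FPKM across BCB-positive oocytes, against 18993, 8266 and 14441 FPKM across BCB-negative oocytes, and ZP4 at 4118 FPKM or more. NOBOX, an oocyte transcription factor, was at most 0.83 FPKM. Of 12 granulosa and cumulus markers 8 were found, with a summed level of 28.6 to 38.2 FPKM across BCB-positive oocytes and 20.2 to 31.2 FPKM across BCB-negative oocytes. INHBA made up most of it, at 19.75 to 31.9 FPKM. HSD17B1 stood at 2.25, 1.64 and 1.78 FPKM across BCB-positive oocytes, against 0.15, 1.31 and 0.16 FPKM across BCB-negative oocytes. The markers FSHR, FOXL2, HAS2 and LHCGR were not found by symbol. STAR, a steroidogenic gene, stood at 1.56, 1.79 and 0.40 FPKM across BCB-positive oocytes, against 0.05, 0.37 and 0.16 FPKM across BCB-negative oocytes, so its classes were separated, as were those of HSD17B1. The steroidogenic genes CYP19A1 and CYP11A1 were at most 0.18 FPKM. What part of any class difference went with these markers was not tested. Of the stromal, vascular and blood cell markers, PECAM1 reached 3.76 FPKM, ACTA2 1.19 FPKM and PTPRC 0.56 FPKM.

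The storage genes spanned levels from among the most abundant messages of the oocyte to near 0. Averaged over the 6 oocytes, ZAR1L stood at 599 FPKM, ZAR1 at 590 FPKM, YBX2 at 209 FPKM and IGF2BP2 at 83.7 FPKM. IGF2BP3 averaged 7.24 FPKM, DAZL 2.80 FPKM, DDX6 2.02 FPKM and LSM14B 0.07 FPKM. Within single oocytes ZAR1 was above YBX2 in 6 of 6, and IGF2BP2 was above IGF2BP3 in 6 of 6. The order of ZAR1L and ZAR1 was not settled by their means, since ZAR1L was above ZAR1 in 1 of 6 oocytes, BCB-positive oocyte 3. DAZL was above DDX6 in 3 of 6. The 8 genes together held 0.190%, 0.155% and 0.191% of the expected counts in BCB-positive oocytes and 0.189%, 0.175% and 0.153% in BCB-negative oocytes, so the classes overlapped in the total of these messages.

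**Figure D1:**
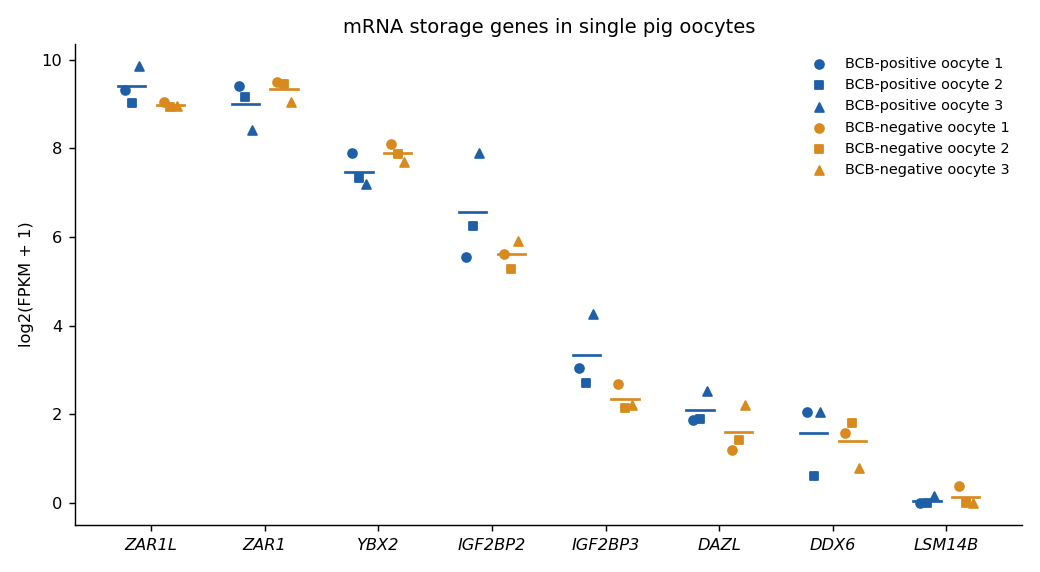
Level of each storage gene with a record, as log2(FPKM + 1), in 3 BCB-positive (blue, left) and 3 BCB-negative (orange, right) single oocytes. Points are oocytes and bars are class means. The classes overlap for every gene but IGF2BP3, for which the lowest BCB-positive oocyte, at 5.54 FPKM, lies just above the highest BCB-negative oocyte, at 5.40 FPKM.

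YBX2, the germ cell cold-shock protein known in mouse oocytes as MSY2 and as a broad stabiliser of stored messages, was at 236, 160 and 146 FPKM across BCB-positive oocytes, against 273, 233 and 206 FPKM across BCB-negative oocytes. BCB-positive oocytes 2 and 3 lay below all BCB-negative oocytes, but BCB-positive oocyte 1 lay above 2 of them, so the classes overlapped. YBX2 averaged 181 ± 48.3 FPKM in BCB-positive and 237 ± 33.8 FPKM across BCB-negative oocytes (SD, n = 3 each), a difference of -0.41 (SD 0.30). Its level was higher than that of 92.5% to 95.8% of the genes with at least 1 FPKM in an oocyte. With BCB-positive oocyte 3 left out the difference was -0.27, and with BCB-negative oocyte 1 left out it was -0.30. Leaving out BCB-positive oocyte 1 made YBX2 a lower gene, at -0.62, the one setting in which any storage gene was called lower.

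YBX2 was the storage gene with reads on more than 1 transcript model in all oocytes. Its models were 1560 and 1581 bases long, and the longer one held 22.4%, 15.2% and 16.5% of the YBX2 FPKM across BCB-positive oocytes and 21.6%, 19.1% and 21.0% in BCB-negative oocytes. The mean share was 18.0% ± 3.83 in BCB-positive and 20.6% ± 1.33 in BCB-negative oocytes (SD, n = 3 each). The classes overlapped, and the difference of -2.56 percentage points was smaller than the pooled SD of 2.87 points. DDX6 had 4 listed models, of which 1, of 6107 bases, had reads. IGF2BP2 had 2 models of equal length, 1468 bases, and 1 of them held all its reads apart from an estimated 0.90 count in BCB-negative oocyte 1.

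ZAR1, an oocyte zinc finger protein that binds maternal messages, was at 678, 568 and 342 FPKM across BCB-positive oocytes, against 727, 697 and 525 FPKM across BCB-negative oocytes. BCB-positive oocyte 3 was the lowest of all, and the other BCB-positive oocytes lay within the BCB-negative range. The means were 529 ± 171 FPKM in BCB-positive and 650 ± 109 FPKM across BCB-negative oocytes (SD, n = 3 each), a difference of -0.34 (SD 0.40), which became -0.05 without BCB-positive oocyte 3 and -0.54 with BCB-positive oocyte 1 left out.

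ZAR1L, the close relative of ZAR1, was at 634, 521 and 930 FPKM across BCB-positive oocytes, against 525, 491 and 494 FPKM across BCB-negative oocytes. The BCB-negative oocytes were close together, with an SD of 18.6 FPKM around a mean of 503 FPKM, whereas BCB-positive oocytes averaged 695 ± 211 FPKM (SD, n = 3 each). The classes overlapped through BCB-positive oocyte 2 alone, which lay just under BCB-negative oocyte 1. The difference was 0.42 (SD 0.30), 0.61 without BCB-positive oocyte 2, where ZAR1L was called higher, and 0.19 without BCB-positive oocyte 3.

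ZAR1 and ZAR1L had class differences of opposite sign, and their ratio within an oocyte, which no scaling of a library can move, was examined after their values had been seen. ZAR1 over ZAR1L was 1.07, 1.09 and 0.37 in BCB-positive oocytes and 1.39, 1.42 and 1.06 in BCB-negative oocytes. BCB-negative oocyte 3 had a ratio like those of BCB-positive oocytes 1 and 2, and BCB-positive oocyte 3 was far below the rest. The log2 ratio had a class difference of -0.76 (SD 0.66), which was -0.24 without BCB-positive oocyte 3. YBX2 over ZAR1 was steadier, at 0.35, 0.28 and 0.43 in BCB-positive oocytes and 0.38, 0.33 and 0.39 in BCB-negative oocytes. Among all pairs of storage genes, YBX2 and ZAR1 had the profiles nearest to each other over the 6 oocytes, with a root-mean-square distance of 0.19 between their centred log2(FPKM + 1) values, and ZAR1 and IGF2BP2 the farthest, at 1.22. Taken over the oocytes other than BCB-positive oocyte 3, those distances were 0.17 and 0.70, and the farthest pair was DDX6 and IGF2BP2, at 0.91. The values were still centred on the means of all 6 oocytes, so BCB-positive oocyte 3 continued to bear on these distances.

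**Figure D2:**
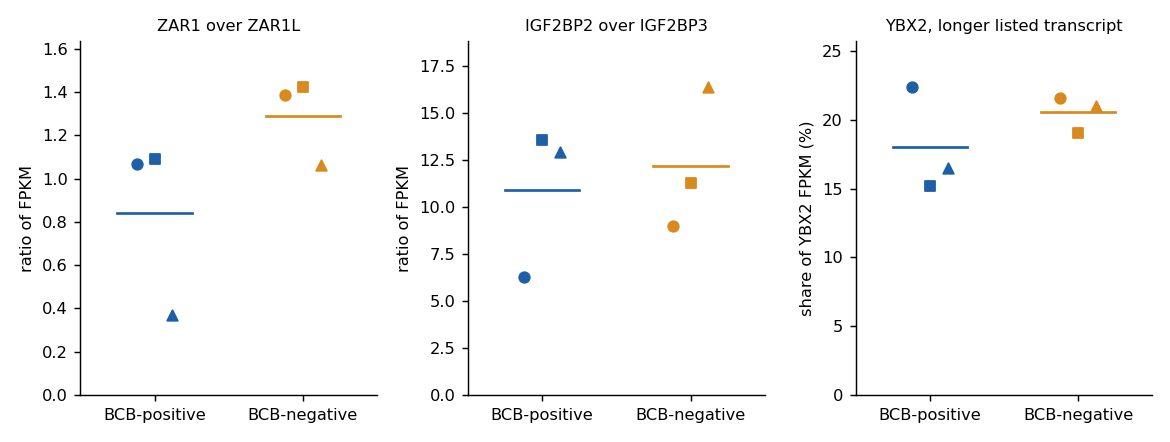
Ratio of ZAR1 to ZAR1L (left) and of IGF2BP2 to IGF2BP3 (middle) by FPKM within each oocyte, and share of YBX2 FPKM on its longer listed transcript (right), for BCB-positive and BCB-negative oocytes. Circles, squares and triangles are oocytes 1, 2 and 3 of a class and bars are class means. The classes overlap in each panel, and the lowest ZAR1 to ZAR1L ratio, 0.37, is that of BCB-positive oocyte 3.

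DDX6 and LSM14B were represented by few reads. DDX6, the DEAD box helicase at the core of a repression complex, was at 3.17, 0.53 and 3.16 FPKM across BCB-positive oocytes, against 2.00, 2.50 and 0.74 FPKM across BCB-negative oocytes. Each class held 1 oocyte below 1 FPKM, BCB-positive oocyte 2 and BCB-negative oocyte 3, so the spread within a class exceeded the distance between classes. The difference was 0.18 (SD 0.70), and it lay between -0.12 and 0.66 when each oocyte was left out in turn. The higher end came from leaving out BCB-positive oocyte 2, where DDX6 was called higher. The expected counts of DDX6 summed to 353 in BCB-positive and 240 in BCB-negative oocytes, which is 14.0 CPM, counts scaled to the library total, with a 95% Poisson interval of 12.6 to 15.5, and 10.7 CPM, with an interval of 9.40 to 12.2. Such an interval covers counting error only, and amplified reads are not independent molecules.

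LSM14B, an Lsm domain protein of messenger ribonucleoprotein particles that mouse oocytes need for maturation, was barely detected. Its single model of 921 bases had 0, 0 and 1 counts in BCB-positive oocytes and 2, 0 and 0 counts in BCB-negative oocytes. A count of 0 allows up to 3 counts, or 0.366 to 0.421 CPM in the oocytes where none was found. LSM14B overlaps PSMA7, a proteasome gene averaging 233 FPKM, in the reference annotation of a later assembly, so its value is uncertain. Its paralogue LSM14A was also low, at 0.76, 0 and 2.28 FPKM across BCB-positive oocytes and 2.14, 0 and 0.60 FPKM across BCB-negative oocytes.

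IGF2BP3, an RNA-binding protein that protects maternal messages in zebrafish embryos, was the storage gene called higher, 1 of 7 compared, and 0 of 7 were called lower. Over all 11495 genes compared, 5.75% were called higher and 2.66% lower. IGF2BP3 was at 7.24, 5.54 and 18.3 FPKM across BCB-positive oocytes, against 5.40, 3.39 and 3.62 FPKM across BCB-negative oocytes. These levels rest on its 1 listed model, of 800 bases. The classes were separated narrowly, with 33 expected counts in BCB-positive oocyte 2 and 30 in BCB-negative oocyte 1, and BCB-positive oocyte 3 was far above the rest. IGF2BP3 averaged 10.35 ± 6.91 FPKM in BCB-positive and 4.14 ± 1.10 FPKM across BCB-negative oocytes (SD, n = 3 each), a difference of 1.00 (SD 0.62). Summed over a class, its counts were 201, or 7.96 CPM (95% Poisson interval 6.90 to 9.14), in BCB-positive oocytes and 68, or 3.03 CPM (2.36 to 3.85), in BCB-negative oocytes. Of the 201 counts, 126 were from BCB-positive oocyte 3, and these intervals cover counting error only, not the spread between oocytes. Without BCB-positive oocyte 3 the difference was 0.54, short of 1.5-fold, and 0 storage genes were called in either direction, where 7.21% of all genes were called higher and 4.41% lower. BCB-positive oocyte 3 also had the lowest sum of granulosa and cumulus markers among BCB-positive oocytes, 28.6 FPKM, of which INHBA made up 26.06 FPKM. Whether that sum bears on the level of IGF2BP3 was not tested.

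IGF2BP2, a member of the same family that reads methylated adenosine in messages, was not separated by class. It was at 45.5, 74.9 and 236 FPKM across BCB-positive oocytes, against 48.5, 38.1 and 59.1 FPKM across BCB-negative oocytes. BCB-positive oocyte 1 lay below 2 BCB-negative oocytes, BCB-positive oocyte 2 lay above them all and BCB-positive oocyte 3 had more than any other oocyte by a wide margin. The means were 119 ± 103 FPKM in BCB-positive and 48.6 ± 10.5 FPKM across BCB-negative oocytes (SD, n = 3 each). The difference was 0.95 (SD 0.88), and 0.28 without BCB-positive oocyte 3. Its SD was larger than that of 95.2% of genes in the same decile of mean expression, but rested on BCB-positive oocyte 3, without which it was 0.38, below that of DDX6 at 0.73 and DAZL at 0.44. The difference was 1.46 without BCB-positive oocyte 1, where IGF2BP2 was called higher.

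A second gene record in the files, gene 102157872 of 3721 bases, carries an accession that stands under IGF2BP2 in the later reference in another version. That record was at 0.24, 1.17 and 2.54 FPKM across BCB-positive oocytes, against 1.08, 1.79 and 0.35 FPKM across BCB-negative oocytes. Adding it to IGF2BP2 gave a difference of 0.93, with the classes still overlapping. The second record was at most 2.54 FPKM, against at least 38.1 FPKM for IGF2BP2, so adding it could hardly move the difference. The level of IGF2BP2 given here is that of its record of 1468 bases. Which record better reflects the level of the gene was not checked. The ratio of IGF2BP2 to IGF2BP3 within an oocyte was 6.29, 13.5 and 12.9 in BCB-positive oocytes and 8.98, 11.2 and 16.3 in BCB-negative oocytes. The ratios of the classes overlapped, and in BCB-positive oocyte 3, where both genes were highest, it lay inside the range of the others.

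DAZL, a germ cell protein that promotes translation during maturation in mouse oocytes, was low. It was at 2.64, 2.74 and 4.79 FPKM across BCB-positive oocytes, against 1.29, 1.68 and 3.66 FPKM across BCB-negative oocytes. BCB-negative oocyte 3 lay above BCB-positive oocytes 1 and 2, so the classes overlapped, and the other BCB-negative oocytes lay below all BCB-positive oocytes. The difference was 0.49 (SD 0.46), and it rested on single oocytes in both directions. It was 0.79 without BCB-negative oocyte 3, where DAZL was called higher, 0.27 with BCB-positive oocyte 3 left out and 0.28 with BCB-negative oocyte 1 left out. Without BCB-negative oocyte 3, 1023 of all genes were called higher, against 661 with all 6 oocytes. The counts of DAZL summed to 258, or 10.22 CPM (95% Poisson interval 9.01 to 11.5), in BCB-positive oocytes and to 144, or 6.42 CPM (5.42 to 7.56), in BCB-negative oocytes. These intervals cover counting error only, not the spread between oocytes, over which the classes overlapped.

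**Figure D3:**
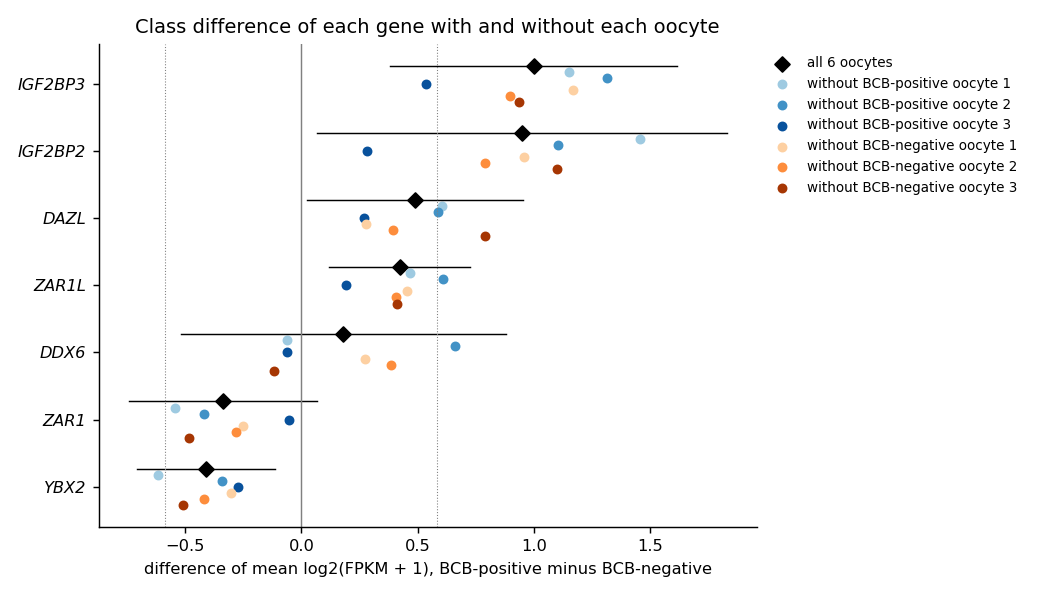
Difference of mean log2(FPKM + 1), BCB-positive minus BCB-negative, for the 7 storage genes compared, with all 6 oocytes (black diamonds, lines of 1 pooled SD to each side) and with each oocyte left out (coloured points). Dotted lines mark 1.5-fold. Leaving out BCB-positive oocyte 3 gives the smallest difference for IGF2BP3, at 0.54, and for IGF2BP2, at 0.28, and DDX6 lies on both sides of 0.

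The median difference of the 7 storage genes compared was 0.42, beside 0.11 for all genes compared. Without BCB-positive oocyte 3 these medians were 0.19 and 0.05. Relative to the other oocytes, BCB-positive oocyte 3 was highest in 4 of the 7 genes, ZAR1L, IGF2BP2, IGF2BP3 and DAZL, and lowest in YBX2 and ZAR1. The same oocyte was highest for 32.6% and lowest for 18.4% of all genes compared. Its log2(FPKM + 1) minus the mean of the other 5 oocytes was 2.17 for IGF2BP2, 1.71 for IGF2BP3, -0.89 for ZAR1 and -0.57 for YBX2. The library scaling shifted all genes together, with a median over all genes of 0.11 for the FPKM as given, 0.02 after median-of-ratios size factors and 0.19 after every library was set to one FPKM sum. IGF2BP3 was at 0.91 and 1.09 under these scalings, YBX2 at -0.51 and -0.31, and none of the 7 genes compared had its sign turned by them.

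For each storage gene compared, the nearest other profile was sought among 5598 named genes averaging 5 FPKM or more, by the root-mean-square distance of centred log2(FPKM + 1) values over the 6 oocytes. A nearest gene is close by selection, so the distances are descriptions. Adding 1 to FPKM shrinks the changes of low genes, so the low genes DAZL and DDX6 lay near genes of smaller relative change. DAZL lay nearest to NANOS1, an RNA-binding repressor of the germline, at a distance of 0.10. NANOS1 was at 111, 132 and 178 FPKM across BCB-positive oocytes, against 81.2, 97.8 and 155 FPKM across BCB-negative oocytes, so its order over the oocytes, BCB-negative oocyte 3 included, was like that of DAZL. IGF2BP3 lay nearest to WDR75, a gene of ribosome biogenesis, at 0.10, and IGF2BP2 nearest to the splicing factor gene CRNKL1, at 0.16. WDR75 and CRNKL1 were highest in BCB-positive oocyte 3, at 29.4 and 211 FPKM. YBX2 lay nearest to the deubiquitinase gene USP7, at 0.06, and ZAR1L to the cyclin gene CCNY, at 0.06. ZAR1 lay nearest to MPP1, at 0.08, and DDX6 to DEPDC1B, at 0.17. The median distance over these candidates was 0.50 to 0.90, depending on the storage gene.

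Other genes of mRNA repression were set beside the storage genes in 3 lists. Of 14 genes of the DDX6 complex and its cap-binding partners, 14 were found and 12 compared, of which 2 were called higher and 0 lower, where 5.75% of all genes were called higher and 2.66% lower. The median difference of the list was 0.23. DCP2, the decapping enzyme, was at 10.6, 12.6 and 16.2 FPKM across BCB-positive oocytes, against 7.93, 7.56 and 5.84 FPKM across BCB-negative oocytes, which differ by 0.79 (SD 0.25), or 0.64 with BCB-positive oocyte 3 left out. CNOT1, the scaffold of the deadenylase complex, was at 21.0, 15.2 and 36.2 FPKM across BCB-positive oocytes, against 15.1, 10.3 and 12.2 FPKM across BCB-negative oocytes. CNOT1 was narrowly separated and had a difference of 0.82 (SD 0.46), which was 0.49 without BCB-positive oocyte 3, where it was no longer called. Without that oocyte 1 gene of the list, DCP2, was called higher, where 7.21% of all genes were. A further pair of genes in the list was separated at less than 1.5-fold and is named after their values were seen, where 7.44% of all genes were separated as higher and 4.03% as lower at any size. EIF4E1B, the oocyte form of the cap-binding protein, was at 46.1, 62.6 and 47.5 FPKM across BCB-positive oocytes, against 40.3, 39.9 and 40.6 FPKM across BCB-negative oocytes, a difference of 0.35. EDC4, a scaffold of decapping, was at 34.3, 33 and 19.9 FPKM across BCB-positive oocytes, against 41.5, 42.1 and 38.9 FPKM across BCB-negative oocytes, a difference of -0.51, which was -0.27 without BCB-positive oocyte 3.

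The most abundant gene of that list was EIF4ENIF1, the eIF4E transporter that binds DDX6 and is a core of oocyte repression particles. EIF4ENIF1 was at 335, 469 and 305 FPKM across BCB-positive oocytes, against 405, 396 and 368 FPKM across BCB-negative oocytes, which overlapped. Of 6 paralogues of the storage genes 5 were found and 4 compared, with 0 called in either direction and a median of 0.03. The cold-shock paralogue YBX3 was at 86.8, 71.6 and 48.6 FPKM across BCB-positive oocytes, against 77.1, 73.5 and 52.8 FPKM across BCB-negative oocytes. YBX1, the somatic relative of YBX2, was at 25.01, 30.7 and 48.9 FPKM across BCB-positive oocytes, against 29.9, 20.4 and 18.9 FPKM across BCB-negative oocytes. Of 23 other RNA-binding proteins of stored or repressed messages, 21 were found and 14 compared, with 0 called in either direction and a median of 0.23. The most abundant were STAU1, which binds double-stranded RNA, with a mean of 135 FPKM in BCB-positive and 115 FPKM across BCB-negative oocytes, and ELAVL1, which binds AU-rich messages, with 101 FPKM in BCB-positive and 106 FPKM in BCB-negative oocytes.

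**Figure D4:**
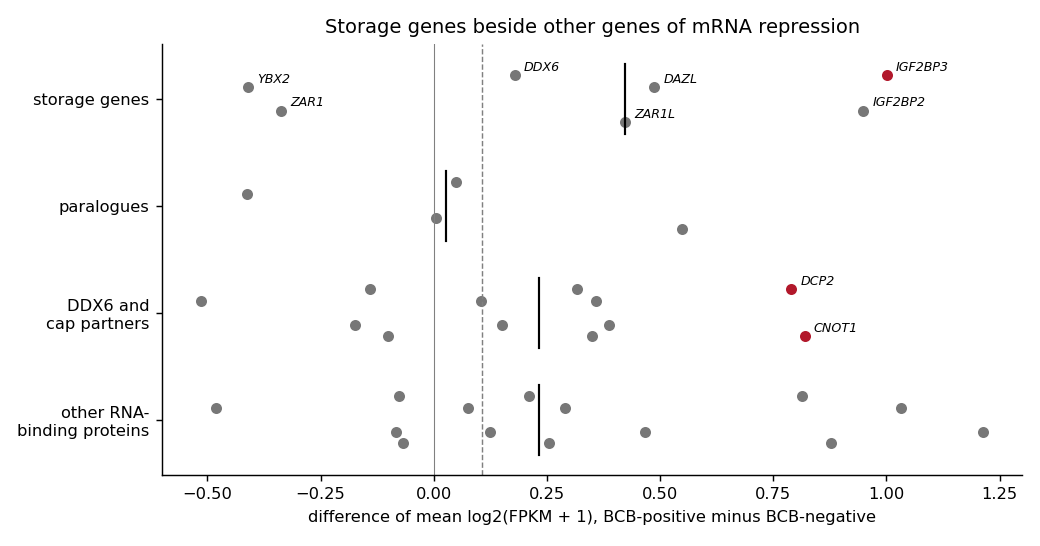
Difference of mean log2(FPKM + 1), BCB-positive minus BCB-negative, for each gene compared in the storage genes and in 3 lists of other genes of mRNA repression. Points are genes, red where called higher, black bars are list medians and the dashed line is the median of all genes, 0.11. The called genes are IGF2BP3, DCP2 and CNOT1, at 1.00, 0.79 and 0.82.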

How the data were processed

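Libraries of single oocytes were made, per the labels' protocols, from PCR-amplified cDNA whose primer carried a 24-nt poly(dT) tail, so a message with a short poly(A) tail may be primed less well. RSEM, BWA, Cufflinks and the build Sscrofa10.2 appear in the submitters' processing notes, without roles or versions. The deposited expected counts are estimates and divide reads among transcripts. FPKM values in the deposited files were scaled by the authors for length and depth, per the file headers. Genes that an oocyte's file did not list were taken as 0.

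Symbols came from a table of the later assembly Sscrofa11.1, used for names and overlaps only; the gene ID matched for 13936 of 19300 genes. The 11495 genes averaging 1 FPKM or more were compared as the difference of mean log2(FPKM + 1), with Python 3.11.15, pandas 2.3.3 and numpy 2.4.6. Other pseudocounts, scalings, units and filters were tried, and each oocyte was left out in turn.

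Genes and lists were chosen with earlier results of these data known. Named were all storage genes, the nearest profile of each, the called genes of a list or else its 2 most abundant, and the 2 most abundant markers. EIF4ENIF1, LSM14A, EIF4E1B, EDC4, PSMA7, NOBOX, STAR, CYP19A1 and CYP11A1 were named after their values were seen. Protein identities were planned and not computed, because no sequences were used here.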

Additional observations from a re-analysis of the deposited data

How the results depend on the processing

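The count of 1 storage gene called higher and 0 lower was the same under another pseudocount, 2 scalings, the ratio of class means and CPM from the expected counts. Leaving out each oocyte in turn gave 0 to 3 storage genes called higher and 0 to 1 lower, and fewer oocytes are easier to separate. The count of 0 higher came without BCB-positive oocyte 3, where 817 of all genes were called higher. That of 3, IGF2BP3, ZAR1L and DDX6, came without BCB-positive oocyte 2, where 1193 of all genes were called higher. The 1 called lower, YBX2, came without BCB-positive oocyte 1, where 797 of all genes were called lower. The median of the storage genes stayed above 0 in all settings run, from 0.19 without BCB-positive oocyte 3 to 0.61 without BCB-positive oocyte 2. The median over all genes was also above 0 in these settings, from 0.02 after median-of-ratios size factors to 0.19 at a common FPKM sum. The difference of each storage gene moved by less than 1 SD in every setting. Leaving out 1 of 3 oocytes of a class cannot move it by 1 SD, so in those settings this is no measure of stability. The sign of DDX6 turned when BCB-positive oocyte 1 or 3 or BCB-negative oocyte 3 was left out. Over all genes, 661 were called higher and 306 lower; leaving out an oocyte gave 817 to 1586 higher and 500 to 797 lower, and a mean of at least 5 FPKM gave 411 and 192, with fewer genes compared. The YBX2 isoform difference lay between -4.73 and -1.14 points. No paired analysis was possible because the labels tie no oocyte of one class to one of the other. Counts of 19 to 177 per oocyte limit DDX6, IGF2BP3 and DAZL, and LSM14B had at most 2.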
